A study of Mus musculus with 24 samples.

Results

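Nuclear receptors switch genes on or off through coregulators, proteins that carry enzymes and scaffolds to the DNA-bound receptor. Coactivators such as the p160 proteins and the PGC-1 proteins bring acetyltransferases and other activating machinery to a receptor that has bound its ligand. Corepressors such as NCoR bring histone deacetylases to a receptor without ligand, and RIP140 acts on receptors with ligand. In fat cells these proteins work with PPARγ, the receptor that drives adipocyte differentiation, and many of them are known targets of SUMO, a small protein attached to lysines.

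Of the 26995 gene symbols in the deposited tables, 9 coregulator genes were examined, chosen by symbol with earlier results of these data known. They were the p160 coactivators *Ncoa1*, *Ncoa2* and *Ncoa3*, the PGC-1 coactivators *Ppargc1a* and *Ppargc1b*, and the corepressors *Nrip1*, which encodes RIP140, *Ncor1*, *Hdac3* and *Tle3*. For each symbol, the 3′UTR entry with most total reads, averaged over the 24 libraries, stood for the gene, and in all 9 it was also the longest entry.

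The cells were 3T3-L1, a clonal mouse embryo fibroblast line that becomes adipocytes when given dexamethasone, isobutylmethylxanthine and insulin. They were cultured with DMSO or with 0.5 μM ML-792, which inhibits the SUMO-activating enzyme SAE1/2, and collected before induction at day −2 and after it at days 1, 3 and 7. The medium kept insulin alone from day 3 onwards. Every condition had 3 libraries, labelled A, B and C, so that there were 12 DMSO and 12 ML-792 libraries. All cells received 100 μM 4-thiouridine for 45 min, which marks new RNA by T to C conversions in the reads. Each library therefore gave a total count and a labelled count, the reads with at least 1 conversion, on every 3′UTR entry of mm10.

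Libraries held 13554718 to 27013352 total reads and 115709 to 820046 labelled reads over all entries, and the labelled percentage ran from 0.802 to 3.68. The cells behaved as their label says. The adipocyte genes *Adipoq* and *Fabp4* went from 290 ± 99.9 and 1020 ± 287 normalized counts at day −2 to 108000 ± 6520 and 148000 ± 10700 at day 7 in DMSO (SD, n = 3). The pre-adipocyte gene *Dlk1* had 55600 ± 17600 at day −2 and 3110 ± 337 at day 7. *Ptprc*, the defining gene of blood cells, was at 0 in all 24 libraries, and the endothelial gene *Pecam1* had at most 21 reads. Of the brown adipocyte genes, *Ucp1* had at most 3 reads in any library, while *Cidea*, a lipid droplet gene known from brown fat, went from 2.55 ± 1.33 to 857 ± 110 in DMSO. Normalized counts are reads scaled to the mean effective library size. In bulk cultures, fewer cells of a type and less RNA per cell cannot be told apart.

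RefSeq promoters on GRCm38.p6 were found for 5 of the 9 genes. For 3 of the 5 genes in which the effect of ML-792 differed between days, 1 start each is shown. *Ncoa1*, also among these 5, had a promoter that is not shown, and none was found for *Ppargc1b*. Each line gives the 250 bases before the annotated start, 5′ to 3′ on the strand of the gene. Capitals mark TGACG on either strand, the half-site of the cAMP response element, because the induction medium raises cAMP.
*Ppargc1a* (chr5:51567726-51567975, minus strand): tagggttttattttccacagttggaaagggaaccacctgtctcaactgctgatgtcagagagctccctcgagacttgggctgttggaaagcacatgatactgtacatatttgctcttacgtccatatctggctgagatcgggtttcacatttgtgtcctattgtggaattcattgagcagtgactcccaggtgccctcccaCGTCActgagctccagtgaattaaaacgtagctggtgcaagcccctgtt
*Tle3* (chr9:61372116-61372365, plus strand): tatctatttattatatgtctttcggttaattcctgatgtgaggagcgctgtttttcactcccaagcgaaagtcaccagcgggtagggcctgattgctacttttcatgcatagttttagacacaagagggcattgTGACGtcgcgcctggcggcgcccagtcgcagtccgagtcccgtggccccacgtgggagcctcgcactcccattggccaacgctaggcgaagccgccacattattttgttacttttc
*Nrip1* (chr16:76373050-76373299, minus strand): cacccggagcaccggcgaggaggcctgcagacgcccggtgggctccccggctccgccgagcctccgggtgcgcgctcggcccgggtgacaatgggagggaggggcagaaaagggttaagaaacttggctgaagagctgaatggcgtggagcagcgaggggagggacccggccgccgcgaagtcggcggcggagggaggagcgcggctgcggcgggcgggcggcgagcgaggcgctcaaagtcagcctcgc
*Ppargc1a* and *Tle3* each hold 1 TGACG half-site in this window, and the *Nrip1* window holds none. The windows found for *Ncoa1* and *Ncor1*, and that of the other *Nrip1* start, also hold none. Whether the half-site is more common in these genes was not tested. The half-site stood in 17.8% of the 32851 promoters of the table. The nuclear receptor half-site AGGTCA, in 14% of all promoters, and the full element TGACGTCA, in 1.55%, were in none of the promoters found for the 9 genes. The *Nrip1* window is 73.6% G and C, and the window of its other annotated start 51.2%, beside 48% in *Ppargc1a* and 52.4% in *Tle3*. These are matches of letters and not measured binding sites.

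The entries lay at the following places in mm10, all among the deposited 3′UTR entries. *Ncoa1* (NM_010881.2) was read at chr12:4247362-4249750, *Ncoa2* (NM_001302702.1) at chr1:13139105-13142760 and *Ncoa3* (NM_008679.3) at chr2:166070144-166073242. *Ppargc1a* (NR_027710.1) was read at chr5:51454249-51458283 and *Ppargc1b* (XM_006525698.2) at chr18:61291445-61298682. *Nrip1* (XM_006523054.2) was read at chr16:76287403-76291181, *Ncor1* (XM_017314356.1) at chr11:62315663-62317842, *Hdac3* (XR_385976.3) at chr18:37936978-37937683 and *Tle3* (NM_001083928.1) at chr9:61416717-61418497. Only *Ncoa3* and *Tle3* lie on the plus strand. The entries ran from 706 bases in *Hdac3* to 7238 bases in *Ppargc1b*, and T made up 27.5% of the bases in *Tle3* and 34% in *Nrip1*, the lowest and the highest of the 9. The *Ncor1* entry overlaps the 3′ end of *Ttc19* on the opposite strand. Whether reads were counted by strand is not given in the sources used here, so part of the *Ncor1* count may come from *Ttc19*.

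Over the 8 conditions, 3 of the genes varied widely and 3 hardly varied. The mean log2 normalized total count spanned 4.98 log2 units in *Ppargc1b*, 3.93 in *Nrip1* and 3.1 in *Ppargc1a*, which placed them at percentiles 95.8, 90.2 and 82.1 of the 13331 genes tested. The span was 2.12 in *Ncoa1*, 1.9 in *Ncoa3* and 1.7 in *Tle3*. It was 0.5 in *Ncoa2*, 0.46 in *Hdac3* and 0.25 in *Ncor1*, and the last of these was at percentile 0.248.

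**Figure D1:**
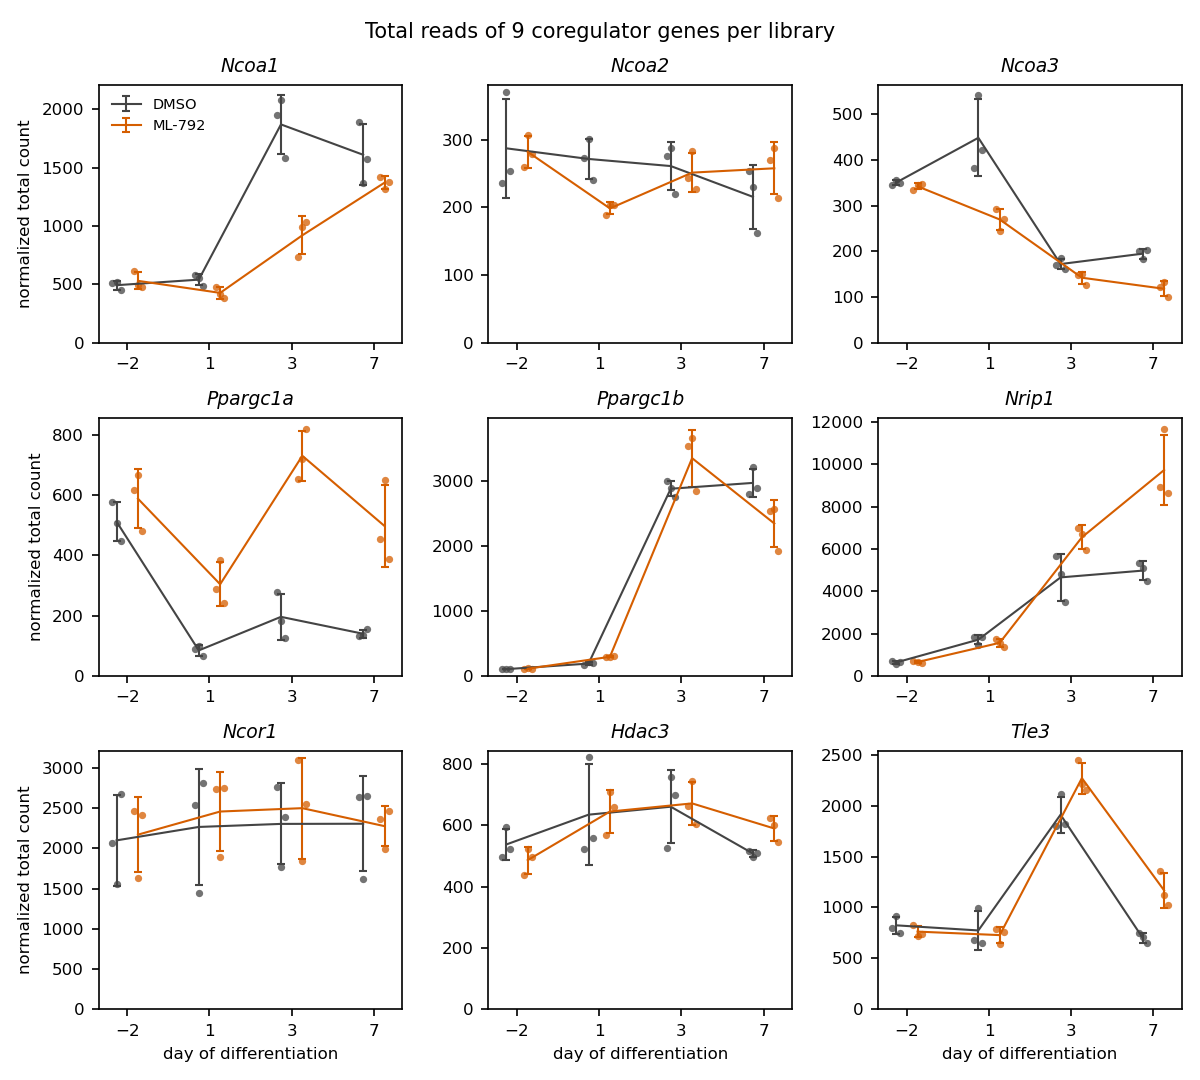
Normalized total counts (y axis, linear, starting at 0 and scaled for each gene) of the 9 genes by day of differentiation (x axis), in DMSO (grey) and ML-792 (orange). Points are libraries, and lines join group means with SD (n = 3). *Ppargc1a* in ML-792 lies above DMSO at days 1, 3 and 7, and *Ncor1* spans only 0.25 log2 units.

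The first comparison asked how the coregulators change as control cells differentiate. All 9 passed the filter on low counts. In DMSO, edgeR's quasi-likelihood test called 2 genes higher and 1 lower at day 1 than at day −2 (adjusted p under 0.01), 4 higher and 2 lower at day 3, and 3 higher and 2 lower at day 7. Among all 13331 genes tested, 6.99% were called higher and 9.86% lower at day 1, 16.6% and 19.4% at day 3, and 18.9% and 19.4% at day 7. The median log2 fold change at day 7 was -0.08 over the 9 genes and -0.02 over all genes. Between neighbouring days, 6 of the 9 differed between days 3 and 1, against 23.2% of all genes, and 1 of the 9 between days 7 and 3, against 10.9%.

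Among the p160 coactivators, *Ncoa1* rose and *Ncoa3* fell. *Ncoa1*, also called SRC-1, had 510, 517 and 449 normalized counts at day −2 and 578, 552 and 488 at day 1. At day 3 its libraries held 1948, 2075 and 1584, and at day 7 they held 1886, 1363 and 1577. All 6 later libraries stood above the 6 earlier ones. Relative to day −2 this was 1.93 ± 0.18 (SE) on the log2 scale at day 3 and 1.71 ± 0.18 at day 7 (edgeR adjusted p = 3.9e-07 and 1.1e-06).

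*Ncoa3*, also called SRC-3, moved the other way. Its counts were 344, 357 and 350 at day −2, 382, 543 and 421 at day 1, 170, 184 and 162 at day 3 and 200, 183 and 202 at day 7. The day 1 libraries all lay above those of day −2, with a log2 fold change of 0.36 ± 0.19 that did not pass (edgeR adjusted p = 0.2). It then fell, by 1.38 ± 0.19 on the log2 scale between days 1 and 3 (edgeR adjusted p = 5.6e-05). Against day −2, it fell by 1.03 at day 3 (edgeR adjusted p = 0.00047) and by 0.85 at day 7 (edgeR adjusted p = 0.002). Without replicate A these 2 adjusted p rose to 0.03 and 0.054, and without replicate C to 0.021 and 0.032.

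*Ncoa2*, also called SRC-2, ended lower but not past the test. Its counts were 236, 371 and 254 at day −2 and 254, 231 and 162 at day 7, so the groups overlapped. The log2 fold change was -0.41 with a 95% interval from -0.92 to 0.09 (edgeR adjusted p = 0.18).

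The PGC-1 coactivators, which are best known for raising mitochondrial genes, parted in opposite directions. *Ppargc1b* had 106, 103 and 101 normalized counts at day −2 and 167, 208 and 192 at day 1. It then had 2992, 2883 and 2755 at day 3 and 2802, 3211 and 2889 at day 7. No library of one of these steps reached the next until day 3, after which days 3 and 7 overlapped. On the log2 scale it rose by 0.87 ± 0.16 at day 1, by 4.8 ± 0.17 at day 3 and by 4.84 ± 0.17 at day 7 (edgeR adjusted p = 0.00079, 5.9e-11 and 2.9e-11). The day 1 call was lost without replicate A (edgeR adjusted p = 0.041) and without replicate C (edgeR adjusted p = 0.038).

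*Ppargc1a* fell at day 1. It had 579, 509 and 449 counts at day −2 and 90.1, 98.4 and 65.2 at day 1, a log2 fold change of -2.6 ± 0.28 (edgeR adjusted p = 7.9e-06). A partial return followed, to 280, 181 and 127 at day 3, which was 1.22 log2 units above day 1 (edgeR adjusted p = 0.0035). This return was not called without replicate A (0.91, edgeR adjusted p = 0.13) or without replicate C (edgeR adjusted p = 0.014). Day 7 libraries held 131, 135 and 154 counts, and stayed -1.87 ± 0.27 from day −2 on the log2 scale (edgeR adjusted p = 4.3e-05).

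Among the corepressors, *Nrip1* rose in steps. RIP140 is known in adipocytes for holding down genes of energy use. *Nrip1* had 684, 565 and 649 normalized counts at day −2, 1846, 1456 and 1827 at day 1, 5662, 4803 and 3488 at day 3 and 5354, 5073 and 4488 at day 7. The groups did not overlap up to day 3, and days 3 and 7 did. From day −2 it rose by 1.43 ± 0.19 log2 units at day 1, by 2.88 ± 0.2 at day 3 and by 2.97 ± 0.2 at day 7 (edgeR adjusted p = 6.1e-05, 2.2e-08 and 1.2e-08). The counts of *Nrip1* and *Ppargc1b* were thus high on the same days, with *Ppargc1a* low.

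*Tle3*, a Groucho-type corepressor known to act with PPARγ in fat cells, peaked at day 3. Its counts were 801, 918 and 753 at day −2 and 676, 998 and 647 at day 1. They were 1801, 2118 and 1818 at day 3 and 744, 708 and 649 at day 7. The 3 libraries of day 3 exceeded the other 9 DMSO libraries. It rose by 1.31 ± 0.19 log2 units between days 1 and 3 (edgeR adjusted p = 6.6e-05), and it fell by 1.45 ± 0.19 between days 3 and 7 (edgeR adjusted p = 7.8e-05). Without replicate A, both values narrowly missed the threshold (edgeR adjusted p = 0.013 and 0.012). The day 7 value of -0.23 against day −2 did not pass (edgeR adjusted p = 0.33).

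*Ncor1*, the scaffold of the NCoR complex, and *Hdac3*, its deacetylase, were not called on any day in the entries used. *Ncor1* had 2070, 1553 and 2681 counts at day −2 and 2640, 1626 and 2657 at day 7, with a log2 fold change of 0.13 and a 95% interval from -0.45 to 0.72. Replicate B was the lowest of the 3 in all 8 conditions. *Hdac3* had 497, 593 and 523 counts at day −2 and 517, 497 and 511 at day 7, with a log2 fold change of -0.08 and an interval from -0.51 to 0.35. Its day 7 libraries all lay under those of day 3, at 527, 757 and 698, by -0.38 ± 0.2 log2 units (edgeR adjusted p = 0.24).

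Within some genes the short entries nested in the chosen one showed where the reads fell. The 547-base entry of *Ppargc1b* (NM_133249.2) held 75 ± 9.2% of the reads of the 7238-base entry at day −2 and 78.4 ± 0.693% at day 7 in DMSO (SD, n = 3). In *Nrip1*, the 320-base entry (NM_173440.2) held 12.1 ± 3.86% at day −2 and 12.5 ± 2.44% at day 7. In *Ncoa3*, the 815-base entry (XM_006498888.2) held 20.2 ± 4.76% at day −2 and 36.3 ± 8.05% at day 7 in DMSO, and 25.3 ± 6.1% at day 7 in ML-792. The 667-base entry of *Ncor1* (XM_006532615.3) held 33% in replicate B and 18.9% and 15.5% in replicates A and C at day −2 in DMSO. A separate 2055-base entry of *Ncor1*, outside the chosen one, had 105, 118 and 68 reads at day −2 in DMSO. At day 7 it had 46, 48 and 38. Beside the reads of the chosen entry this was 4.4 ± 2.28% and 2.23 ± 0.757%. These shares carry no test.

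The second comparison asked how SUMO inhibition changes the coregulators at each day. At day −2 none of the 9 genes differed between ML-792 and DMSO by edgeR's quasi-likelihood test (adjusted p under 0.1), and none had an unadjusted p under 0.05. How long these cells had been in ML-792 when they were collected is not given in the sources used here. None of the 13331 genes was called at day −2 (0%), 184 had an unadjusted p under 0.05, and DESeq2 also called 0. At day 1, 2 of the 9 were higher in ML-792 and 1 lower, at day 3 2 were higher and 1 lower, and at day 7 3 were higher and 1 lower. Of all genes, 3.72% were higher and 4.31% lower at day 1, 8.42% and 6.97% at day 3, and 6.03% and 5.58% at day 7. Averaged over the 4 days, 2 of the 9 were higher and 2 lower, against 8.51% and 8.04% of all genes. The effect of ML-792 differed between days in 5 of the 9 (interaction F test), against 11.9% of all genes. Without replicate A the interaction called none of the 9, and without replicate C only *Ppargc1a* (edgeR adjusted p = 0.14 and 0.048 in this gene). Leaving out either of these replicates also left 1 called gene at day 1 and 2 at day 7, *Ppargc1a* and, at day 7, *Nrip1*.

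**Figure D2:**
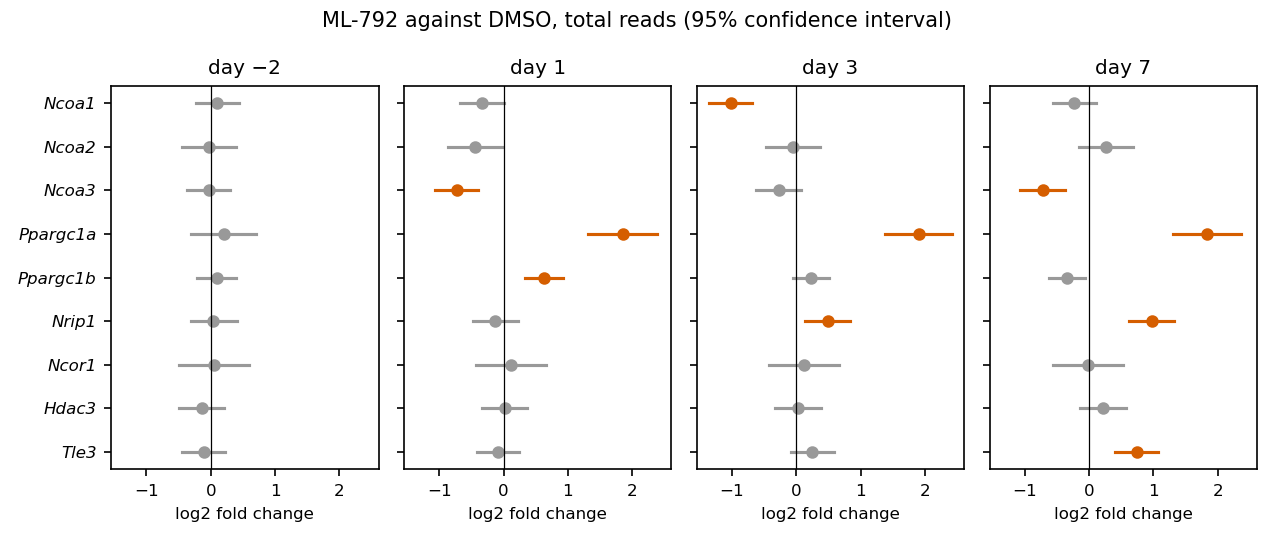
Log2 fold change of ML-792 against DMSO in total reads (x axis) for the 9 genes (y axis) at each day, from edgeR's fit of 24 libraries. Bars are 95% confidence intervals, and orange marks an adjusted p under 0.1. *Ppargc1a* stands near 1.9 at days 1, 3 and 7 and *Ncoa1* at -1.02 at day 3.

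*Ppargc1a* was higher in ML-792 at each day after induction. At day −2, the libraries held 617, 669 and 481 normalized counts in ML-792, which overlapped the 579, 509 and 449 of DMSO, with a log2 fold change of 0.2 and an interval from -0.3 to 0.7. At day 1 they held 289, 384 and 241 against 90.1, 98.4 and 65.2, at day 3 654, 719 and 820 against 280, 181 and 127, and at day 7 456, 650 and 388 against 131, 135 and 154. At these 3 days no ML-792 library came down to a DMSO library. The log2 fold changes were 1.85 ± 0.26, 1.9 ± 0.25 and 1.83 ± 0.26 (edgeR adjusted p = 4.2e-05, 1.1e-05 and 3.2e-05). In ML-792 the mean went from 589 ± 97.1 at day −2 to 304 ± 72.9 at day 1 (SD, n = 3), and the day 3 mean of 731 ± 83.4 was the highest of the 8 conditions. The libraries of day −2 in either treatment and of day 7 in ML-792 overlapped.

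*Nrip1* was also higher in ML-792, at later days. At day 1 its counts were 1731, 1574 and 1380 in ML-792 and overlapped DMSO (-0.13, edgeR adjusted p = 0.82). At day 3 they were 7007, 6705 and 5922 and lay above the 5662, 4803 and 3488 of DMSO, by 0.49 ± 0.17 log2 units (edgeR adjusted p = 0.069). At day 7 they were 8905, 11640 and 8618, about 1.96-fold the DMSO level, with a log2 fold change of 0.97 ± 0.17 (edgeR adjusted p = 0.00053). The day 3 call was lost without replicate A (edgeR adjusted p = 0.22), without replicate C (edgeR adjusted p = 0.43), with no filter on low counts (edgeR adjusted p = 0.19) and in the 6 libraries of the day alone (edgeR adjusted p = 0.24).

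The p160 coactivators were lower in ML-792 where they were called. *Ncoa1* had 733, 993 and 1032 counts at day 3 in ML-792, all under the 1948, 2075 and 1584 of DMSO, with a log2 fold change of -1.02 ± 0.16 (edgeR adjusted p = 9.4e-05). At day 7 it had 1418, 1312 and 1379, which overlapped DMSO at -0.23 (edgeR adjusted p = 0.51). At day 1 its 477, 420 and 381 lay under every DMSO library, at -0.34 ± 0.16 (edgeR adjusted p = 0.32). The interaction of day and treatment passed (edgeR adjusted p = 0.012).

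*Ncoa3* had 292, 245 and 271 counts at day 1 in ML-792 against 382, 543 and 421 in DMSO, and 122, 133 and 99.7 at day 7 against 200, 183 and 202. The groups did not overlap on either day. The log2 fold changes were -0.73 ± 0.16 and -0.72 ± 0.17 (edgeR adjusted p = 0.0063 and 0.0083), and that at day 3 was -0.27 ± 0.17 (edgeR adjusted p = 0.41). Both calls were lost without replicate A (edgeR adjusted p = 0.12 and 0.22), without replicate C (0.14 and 0.32), with no filter (0.13 and 0.14) and in the 6 libraries of the day alone (0.1 and 0.11), and that of day 1 also without replicate B (0.1). The average over days passed, at -0.44 ± 0.08 (edgeR adjusted p = 0.00063). *Ncoa2* had 188, 204 and 203 at day 1 in ML-792, under the 273, 301 and 241 of DMSO, at -0.45 ± 0.2 (edgeR adjusted p = 0.28).

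*Ppargc1b* moved in both directions. At day 1 its 285, 291 and 304 counts in ML-792 lay above the 167, 208 and 192 of DMSO, by 0.63 ± 0.14 log2 units (edgeR adjusted p = 0.0068). At day 3 the groups overlapped (0.22, edgeR adjusted p = 0.42). At day 7 its 2541, 2563 and 1924 lay under the 2802, 3211 and 2889 of DMSO, at -0.34 ± 0.14, which did not pass (edgeR adjusted p = 0.15). The interaction passed (edgeR adjusted p = 0.014), and the average over days did not (edgeR adjusted p = 0.2). The day 1 call was lost without replicate A (edgeR adjusted p = 0.34), without replicate C (edgeR adjusted p = 0.14) and in the 6 libraries of the day alone (edgeR adjusted p = 0.15).

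*Tle3* was also highest at day 3 in ML-792, with 2446, 2210 and 2160 counts, and these lay above DMSO by 0.25 ± 0.16 log2 units without passing (edgeR adjusted p = 0.44). At day 7 it had 1356, 1123 and 1026 against 744, 708 and 649 in DMSO, so that no libraries overlapped. The log2 fold change was 0.74 ± 0.16 (edgeR adjusted p = 0.0046). Without replicate A this was 0.66 (edgeR adjusted p = 0.21), and without replicate C 0.77 (edgeR adjusted p = 0.11).

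*Ncor1* and *Hdac3* had averaged effects close to 0. The average effect of ML-792 over the 4 days was 0.07 on the log2 scale in *Ncor1*, with a 95% interval from -0.21 to 0.34. In *Hdac3* it was 0.03, with an interval from -0.15 to 0.21. Neither was called at any day. Intervals of single days were wider, as from -0.43 to 0.66 in *Ncor1* at day 3. At day 7 the *Hdac3* libraries held 624, 600 and 545 counts in ML-792, above the 517, 497 and 511 of DMSO. The interval there ran from -0.14 to 0.57 (edgeR adjusted p = 0.58).

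Marker genes of the cell state differed beside these values. Of 6 adipocyte genes at day 7, 5 had a higher mean in ML-792 and 1 a lower one, and in 2 all ML-792 libraries lay above DMSO. These were *Adipoq*, with 187000 ± 28600 normalized counts in ML-792 and 108000 ± 6520 in DMSO, and *Fabp4*, with 257000 ± 31000 and 148000 ± 10700 (SD, n = 3). *Lpl* had 327000 ± 40100 and 325000 ± 19000, and *Cebpa* 6860 ± 2090 and 7760 ± 1870. The sum of the 6 ran from 757000 to 823000 in ML-792 and from 570000 to 629000 in DMSO. At day 3 the order was another one, with 2 of the 6 higher in ML-792 and 4 lower. There *Adipoq* had 16700 ± 1770 in ML-792 and 30400 ± 3200 in DMSO and *Lpl* 170000 ± 16000 and 227000 ± 28000, in both with no overlap, and the sums of 392000 to 454000 and 336000 to 486000 overlapped. At day 1, 4 of the 6 had a higher mean in ML-792 and 2 a lower one. All ML-792 libraries lay above DMSO in 2 genes and below it in 2. The 6 summed to 34700 to 39900 in ML-792 and 41300 to 44800 in DMSO. Most of this sum was *Lpl*, at 29700 ± 2600 and 37100 ± 1020. Of 4 pre-adipocyte or fibroblast genes, 3 had a higher mean in ML-792 at days 3 and 7 and *Dlk1* a lower one, with 1480 ± 402 against 3110 ± 337 at day 7. Their sum at day 3 was 20200 to 26300 in ML-792 and 11300 to 13500 in DMSO, and at day 7 19600 to 25500 and 12500 to 19000. *Cidea* had 203 ± 40.5 counts at day 7 in ML-792 and 857 ± 110 in DMSO. The part of the cell state in the values of the coregulators was not tested.

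The genes most like the 3 that varied most were found over the 8 condition means of log2 normalized total counts. The nearest to *Ppargc1b* were *Mrpl12* and *Mrps34*, which encode mitochondrial ribosomal proteins, and *Atp5o*, a subunit of ATP synthase, with Pearson r of 0.9975, 0.9961 and 0.996. The nearest to *Nrip1* were *Nfs1*, an iron-sulfur cluster enzyme, *Fh1*, the fumarate hydratase, and *Otud6b*, a deubiquitinase, at 0.9944, 0.991 and 0.9907. For *Ppargc1a*, they were *Pard6g*, *Gata3* and *Rbfox1*, at 0.9584, 0.9509 and 0.9476. These are descriptions over 8 points that share their libraries, picked from all genes tested.

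Labelled reads, the measure of RNA made during the 45 min, were sparse. Libraries without 4-thiouridine were not analysed here, so the share of reads that carry a T to C mismatch without labelling is not known. Among labelled counts, 7 of the 9 genes passed the filter, and *Hdac3* and *Ncoa3* did not. The labelled counts took the scaling of the total reads, on which the median of all 6434 genes tested was -1.2, -1.64 and -1.47 log2 units at days 1, 3 and 7 against day −2 in DMSO. The medians of the 7 genes were -1.42, -1.06 and -1.64. A common loss of labelled reads after induction thus lay under every value of the time course.

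In DMSO, no coregulator was called higher in labelled reads at day 1 and 2 of the 7 lower, against 0.56% and 18.9% of genes (edgeR, adjusted p under 0.01). At day 3 the counts were 1 higher and 2 lower, against 1.99% and 32.3%. At day 7 they were 2 higher and 2 lower, against 1.99% and 28.1%. Between neighbouring days 1 of the 7 differed between days 3 and 1, against 3.48% of genes, and none between days 7 and 3, against 0.326%. For days 7 and 3, DESeq2 also called none of the 7. In edgeR, 1 of the 7 and 684 of the 6434 genes had an unadjusted p under 0.05.

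*Ppargc1b* and *Nrip1* rose in labelled reads against that common loss. *Ppargc1b* had 6.54, 0.894 and 0 normalized labelled counts at day −2 and 61.3, 44.1 and 33.6 at day 3, with 50.8 to 79.3 at day 7. The log2 fold change was 4.11 ± 0.66 at day 3 and 4.6 ± 0.66 at day 7 (edgeR adjusted p = 1.6e-06 and 1.6e-07). *Nrip1* had 51.9 to 105 labelled counts at day −2 and 163 to 212 at day 7, with no overlap and a log2 fold change of 1.22 ± 0.38 (edgeR adjusted p = 0.0077). That call was lost without replicate A, B or C (edgeR adjusted p = 0.063, 0.03 and 0.017) and with no filter on low counts (0.013).

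*Ppargc1a* fell in labelled reads to a handful. Its 3 libraries of day −2 held 96 labelled reads in sum, those of day 1 held 2, those of day 3 held 5 and those of day 7 held 3. At equal depth, day −2 was 47-fold above day 1, with an exact 95% counting interval from 12.7 to 394, and 25.1-fold above day 7, from 8.34 to 124. The intervals cover counting error only. The edgeR adjusted p was 0.00027, 0.0017 and 0.00067 for the 3 days. With labelled reads scaled by themselves, the log2 fold changes stayed negative at -4.12, -2.38 and -3.14, and none passed (edgeR adjusted p = 0.017, 0.12 and 0.046). Days 1 and 7 were not called without replicate A (edgeR adjusted p = 0.027 and 0.025), and day 3 neither without replicate B nor without C (0.011 and 0.019).

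*Ncoa1* fell in labelled reads at day 1, from 30.4 to 35.5 counts at day −2 down to 1.84 to 12.4, a log2 fold change of -2.29 ± 0.63 (edgeR adjusted p = 0.0046). *Ncor1* was lower at day 3 by -2.11 ± 0.55 (edgeR adjusted p = 0.0017) and *Tle3* at day 7 by -2.54 ± 0.61 (edgeR adjusted p = 0.00082). Scaled by the labelled reads themselves, these were -1.07, -0.6 and -1.15 and were not called (edgeR adjusted p = 0.3, 0.47 and 0.19). The *Ncoa1* and *Tle3* calls were also lost without replicate A (edgeR adjusted p = 0.11 and 0.032) and that of *Ncor1* without replicate C (edgeR adjusted p = 0.072). *Ncor1* at day 7 was at -1.64 ± 0.54, just outside the threshold (edgeR adjusted p = 0.011). *Ncoa2* was not called.

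For ML-792, no coregulator was called in labelled reads on any single day, where 0%, 1.06%, 1.12% and 0.964% of genes were called at days −2, 1, 3 and 7 (edgeR, adjusted p under 0.1). On those days, 1, 1, 2 and 0 of the 7 had an unadjusted p under 0.05. Of the 6434 genes, 46, 748, 660 and 752 did. DESeq2 called 1 of the 7, *Ppargc1a* at day 3, and 131 genes in all on that day. At day −2 DESeq2 called 0. Averaged over the 4 days, 2 of the 7 were called, against 4.97% of genes. The interaction of day and treatment called none of the 7, against 0.28% of genes. At an unadjusted p under 0.05 were 2 of the 7 and 535 genes, and DESeq2 called 1 of the 7 and 106 genes.

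The averaged effects had the direction seen in total reads. *Ppargc1a* was higher in ML-792 by 1.64 ± 0.49 log2 units (edgeR adjusted p = 0.062) and *Ncoa1* lower, at -1.42 ± 0.35 (edgeR adjusted p = 0.015). At day 3 *Ppargc1a* had 38 labelled reads over the ML-792 libraries and 5 over those of DMSO, a ratio of 7.93 with a counting interval from 3.12 to 25.8 and a log2 fold change of 2.9 ± 0.89 (edgeR adjusted p = 0.15). At day 1 the reads were 10 and 2, a ratio of 5.93 from 1.26 to 55.6, and at day 7 they were 7 and 3, a ratio of 2.7 from 0.617 to 16.2. At day 3 *Ncoa1* had 3.26 to 11 labelled counts in ML-792 and 5.79 to 48.7 in DMSO, which overlapped (-1.8 ± 0.67, edgeR adjusted p = 0.29). The averaged *Ppargc1a* call was lost without replicate B or C (edgeR adjusted p = 0.19 and 0.4) and with no filter (0.11), and that of *Ncoa1* without replicate A (0.16). *Ppargc1b* at day −2 had 7.07 to 16 labelled counts in ML-792, above the 0 to 6.54 of DMSO, with an adjusted p of 1 in edgeR.

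**Figure D3:**
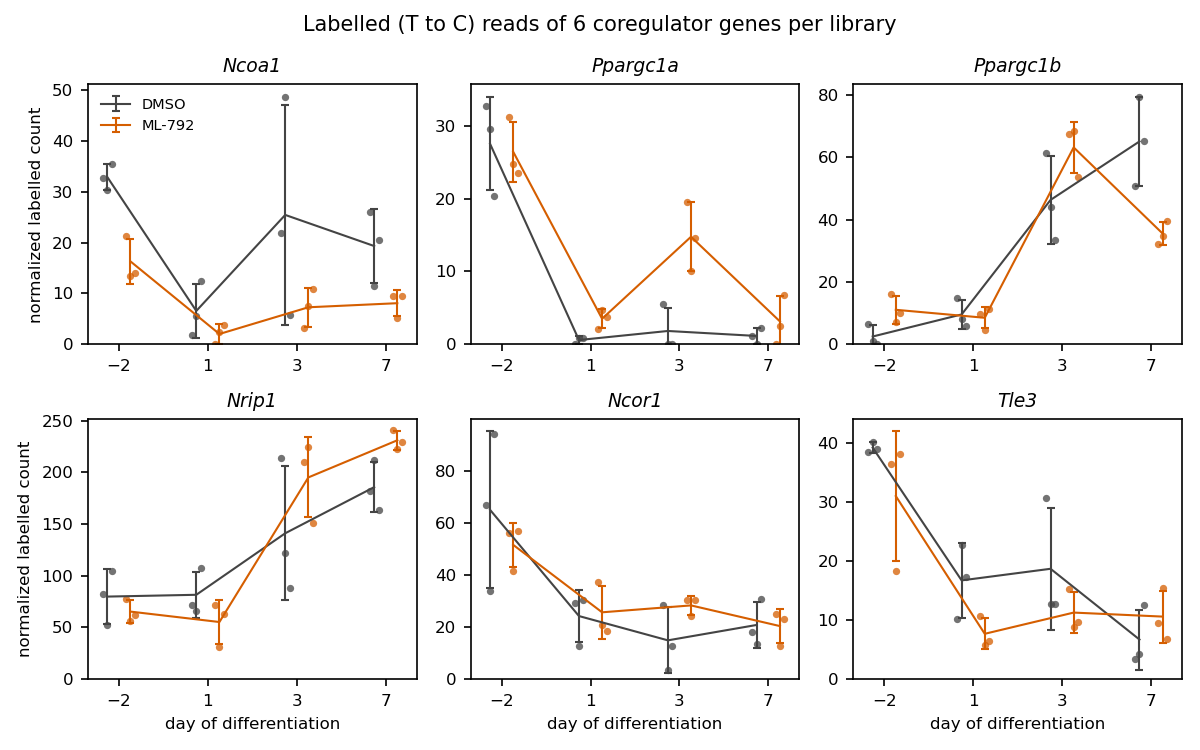
Normalized labelled counts (y axis, linear, starting at 0 and scaled for each gene) of 6 of the 7 genes tested in labelled reads, by day (x axis), in DMSO (grey) and ML-792 (orange). Points are libraries, and lines join group means with SD (n = 3), cut at 0 where they run below it. *Ppargc1b* and *Nrip1* end above their start and *Ppargc1a* falls to 2 reads in all at day 1 in DMSO.

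The labelled share, the percentage of a gene's reads that carried a conversion, was highest in *Nrip1* at day −2 in DMSO. It overlapped between many of the other genes. The share depends on how fast the RNA turns over and on how many T bases the reads cover. At day −2 in DMSO, *Nrip1* had 12.1, 9.18 and 16.1% labelled reads, with a mean of 12.5 ± 3.5% (SD, n = 3), at percentile 97.2 of the 7826 genes with at least 200 reads per library on average. The median gene had 2.31%. *Ncoa1* followed at 6.74 ± 1.05%, *Ppargc1a* at 5.33 ± 0.68%, *Ncoa2* at 5.23 ± 1.61% and *Tle3* at 4.79 ± 0.401%, and the libraries of the last 3 overlapped. *Ncor1* had 2.98 ± 0.699% and *Hdac3* 1.14 ± 0.367%, the latter at percentile 21. In ML-792 at day −2 the 3 libraries of *Ncoa1* had 2.71 to 3.48% labelled reads, all under the 5.88 to 7.91% of DMSO, and this share was not tested.

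*Nrip1* kept a high labelled share in every condition, with percentiles from 92.9 to 97.2, while the share itself dropped to 3.74 ± 0.399% at day 7 in DMSO and 2.43 ± 0.446% in ML-792. The median gene stood at 0.884% and 0.675% there. By mean, *Ppargc1b* lay above *Nrip1* at day 1 in DMSO (5.25 ± 3.1% and 4.75 ± 1.02%) and at day −2 in ML-792 (10.1 ± 4.36% and 9.96 ± 1.13%). So did *Ncoa2* at day 7 in ML-792 (2.53 ± 2.29% and 2.43 ± 0.446%). The libraries overlapped in each case. *Ppargc1b* had 2.18 ± 0.334% at day 7 in DMSO, at percentile 85.8. *Hdac3* had 0 labelled of 1738 reads at day 3 in DMSO, which allows a share of up to 0.173%. In ML-792, *Hdac3* had 0.646 ± 0.0386% at day 3 (11 of 1696 reads) and 1.31 ± 0.704% at day 7 (19 of 1389 reads), at percentiles 40.9 and 78.9. At day 1 the order was the other way, with 0.0547 ± 0.0948% in ML-792 (1 of 1846 reads) and 0.413 ± 0.0524% in DMSO (9 of 2149 reads). *Hdac3* had not passed the filter in labelled reads, and these shares were not tested. *Hdac3*, *Ncoa2*, *Ncoa3* and, in DMSO, *Ppargc1a* rested on few labelled reads after induction, with single libraries at 0. In ML-792, *Ppargc1a* had 10 labelled reads at day 1 and 7 at day 7, and *Ncoa1* had 6 at day 1. Replicate A held 0 of those of *Ppargc1a* at day 7 and of *Ncoa1* at day 1.

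**Figure D4:**
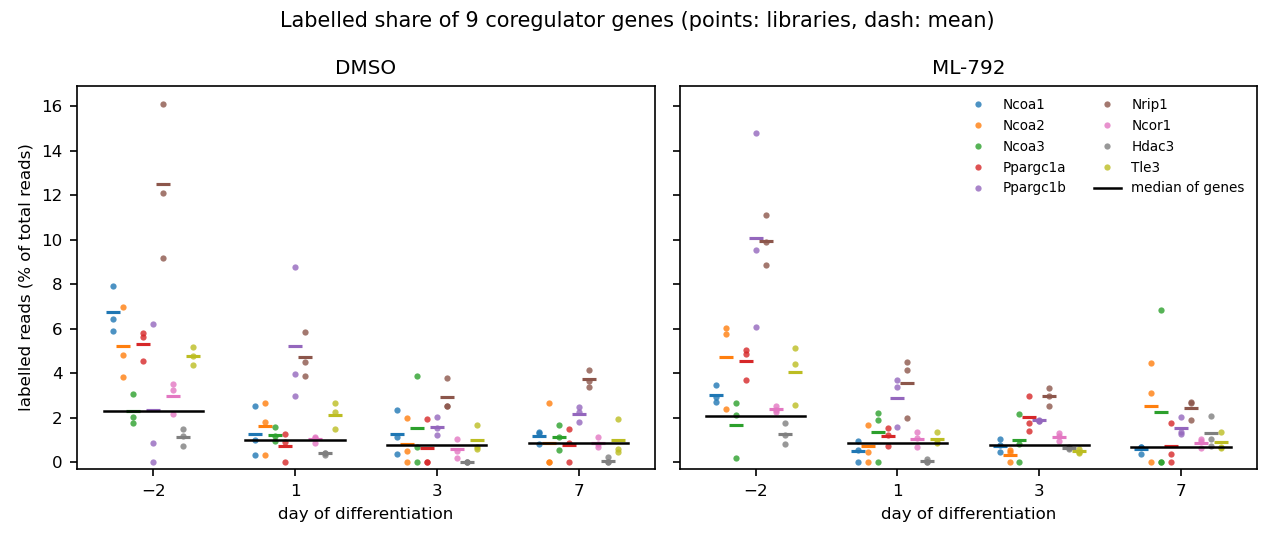
Labelled reads as a percentage of total reads (y axis) of the 9 genes by day (x axis), in DMSO on the left and ML-792 on the right. Points are libraries, coloured dashes their mean (n = 3), and black lines the median of 7826 genes. *Nrip1* lies above the black line in all 8 conditions and *Hdac3* below it at day −2 in both.

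Of 40 further coregulators in 4 lists, 39 were found in the tables and 38 passed the filter in total reads. At day 7 against day −2 in DMSO, 6 of the 38 were higher and 8 lower by edgeR's quasi-likelihood test at an adjusted p under 0.01, against the 18.9% and 19.4% of all genes given above. In the rest of the NCoR complex, 2 of 5 genes were higher. *Tbl1xr1*, a subunit for corepressor exchange, had 965, 889 and 891 normalized counts at day −2 and 2065, 1971 and 1566 at day 7 (log2 fold change 1.03, edgeR adjusted p = 0.00027). *Coro2a* had 0 reads at day −2 and 27.1, 25 and 32 counts at day 7, at least 10.8-fold higher against a floor of 3 reads per library.

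Among other corepressors 2 of 15 genes were higher and 4 lower at day 7. *Tle1* rose from 318 ± 21.1 to 586 ± 87.6 normalized counts (SD, n = 3, edgeR adjusted p = 0.00059). *Nrip2* had 0 reads at day −2 and 13.5, 19.8 and 3.43 counts at day 7. Its mean was at least 4.71-fold higher against the floor of 3 reads per library, with replicate C close to that floor. *Tle2* fell from 357, 185 and 386 counts to 9.03, 12.5 and 12.6 (log2 fold change -4.75, edgeR adjusted p = 1.8e-07). *Tle6* fell from 291, 314 and 298 to 24.8, 55.3 and 51.4 (-2.77, edgeR adjusted p = 2.2e-06).

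Of 9 acetyltransferases and methyltransferases, 1 was higher and 1 lower at day 7. *Kat2b*, which encodes the acetyltransferase PCAF, went from 681 ± 208 counts before induction to 1316 ± 340 at day 7 (SD, n = 3), a log2 fold change of 0.95 (edgeR adjusted p = 0.0078), and its libraries held 547, 920 and 575 and then 1453, 929 and 1566, so that the highest of day −2 nearly met the lowest of day 7, both replicate B. *Kmt2d*, a histone H3 methyltransferase, fell from 626 ± 89.1 to 341 ± 5.46 (edgeR adjusted p = 0.00075). Of 9 other coactivators tested, 1 was higher and 2 lower. *Ncoa4*, a receptor coactivator and ferritin receptor, had 9, 18.8 and 5.33 counts at day −2 and 41.8, 55.3 and 33.1 at day 7 (1.97, edgeR adjusted p = 0.0067). *Helz2*, a helicase known as a PPAR coactivator, fell from 422 ± 109 to 83.9 ± 30.5 (-2.33, edgeR adjusted p = 1e-05). *Pprc1*, the other PGC-1 relative, fell from 356 ± 33 to 172 ± 36.4 (-1.05, edgeR adjusted p = 0.0015).

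Under ML-792, 5 of the 38 were higher and 1 lower at day 1, 5 higher and 4 lower at day 3 and 1 higher and 2 lower at day 7 (edgeR, adjusted p under 0.1). Of all genes, 3.72% and 4.31%, 8.42% and 6.97%, and 6.03% and 5.58% were higher and lower on these days, so that the counts at days 3 and 7 were close to or below the share over all genes. At day −2 edgeR and DESeq2 both called 0 of them, and 0 had an unadjusted p under 0.05. *Tle2* was higher on all 3 later days, with 292, 183 and 287 counts at day 1 in ML-792 against 87.4, 61 and 93.2 in DMSO, 139, 74.7 and 115 against 33.9, 13.9 and 19.7 at day 3, and 32.2, 23.2 and 53.3 against 9.03, 12.5 and 12.6 at day 7. The groups did not overlap on these days, and the log2 fold changes were 1.66, 2.27 and 1.65 (edgeR adjusted p = 0.0018, 0.00011 and 0.015). *Tle4* at day 3 had 289, 277 and 272 against 108, 107 and 105 (1.39, edgeR adjusted p = 3.7e-06). *Tle6* was higher at day 1, at 282 ± 77.5 against 164 ± 15, and at day 3, at 97.9 ± 22.6 against 31.5 ± 9.39 (SD, n = 3, edgeR adjusted p = 0.086 and 0.00034).

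*Nrip2* at day 1 had 20.3, 1.16 and 32.6 counts in ML-792 and 0.92, 0 and 0 in DMSO (edgeR adjusted p = 0.0093), with 1 ML-792 library close to the DMSO level. At day 7, *Gps2*, a subunit of the NCoR complex, had 260, 259 and 257 in ML-792 and 397, 548 and 375 in DMSO (-0.77, edgeR adjusted p = 0.045). *Coro2a* had 4.77, 1.29 and 10.9 against 27.1, 25 and 32 (-2.3, edgeR adjusted p = 0.065). Of the 9 acetyltransferases and methyltransferases, edgeR and DESeq2 called 0 on any day for ML-792 in total reads. On each of days 1, 3 and 7, 1 had an unadjusted p under 0.05, against 2306, 3098 and 2823 of the 13331 genes.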

How the data were processed

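Cells were pulsed with 4-thiouridine and read as QuantSeq 3′ libraries. Mapping to mm10 and read filtering were done in SlamDunk v0.4.3. The authors deposited raw counts of total and of labelled reads on RefSeq 3′UTR entries, 91830 in each table, without normalization. Libraries were grouped by sample title. Of the library columns of each table, 6 match no sample and were not used.

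Here the counts were analysed with edgeR 4.0.16 in R 4.3.3. Total counts were scaled by TMM, and labelled counts took the library sizes and factors of the total reads. Entries passed filterByExpr over the 8 conditions (minimum count 10, minimum total 15), which left 26563 entries in total and 10589 in labelled reads. A robust quasi-likelihood model was fitted to all entries, with p-values adjusted by Benjamini-Hochberg over them. The DMSO time course used 12 libraries and an adjusted p under 0.01. ML-792 against DMSO and the interaction used 24 libraries and an adjusted p under 0.1. Shares of genes called count 1 entry per symbol. Normalized counts are scaled to the mean effective library size, and log2 means used a prior count of 2. The floor was 3 reads. Counting intervals are exact at 95% and cover counting error only. The methods call the 3 samples biological replicates.

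The fits were tested on simulated counts. Alternatives were DESeq2 1.42.0, no filter, 1 entry per gene, a replicate block, each replicate left out, the longest entry, other libraries in the fit and labelled reads scaled by themselves. Figures used Python 3.11.15.

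The members and lists were chosen with earlier results of these data known. Besides the 9 members, the text names, per list of further coregulators, up to 2 called genes that rose most and 2 that fell most at day 7 against day −2 in DMSO, and per day the 3 called genes with the largest effect of ML-792. It also names the 3 genes closest to each of the 3 members that varied most. Proteins were not analysed here, and 1 gene that the rule names is not reported here.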

Additional observations from a re-analysis of the deposited data

Results flagged for a closer look

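In total reads, the effect of ML-792 differed between days in 5 of the 9 genes, by edgeR's F test of the 3 interaction terms. The adjusted p was 0.0032 for *Ppargc1a*, with log2 fold changes of 0.2, 1.85, 1.9 and 1.83 at days −2, 1, 3 and 7. It was 0.012 for *Ncoa1*, which was at -1.02 at day 3, 0.013 for *Nrip1*, at 0.97 at day 7, and 0.014 for *Ppargc1b*, at 0.63 at day 1 and -0.34 at day 7. For *Tle3* it was 0.048, with 0.74 at day 7. Without replicate A none of the 5 passed, and the adjusted p of *Ppargc1a* was 0.14. Without replicate C only *Ppargc1a* passed, at 0.048. Without replicate B all 5 passed, with an adjusted p from 0.014 to 0.072. *Ncoa3* was not called in the main fit (edgeR adjusted p = 0.12). It passed with 1 entry per gene (edgeR adjusted p = 0.088) and with the replicate block (edgeR adjusted p = 0.048). It also passed in DESeq2's likelihood ratio test (adjusted p = 0.024), which called 6 of the 9 and 2272 genes in all. Groups of 3 libraries were not tested for single libraries that stand apart.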

How the results depend on the processing

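The 9 genes were read under each alternative. In total reads, leaving out each replicate in turn gave 0 to 1 called genes for DMSO day 7 against day 3, 1 to 2 for ML-792 at day 1, 2 to 4 for it at day 7 and 0 to 5 for the interaction. In labelled reads it gave 0 to 2 for DMSO day 1 against day −2, 1 to 3 for day 3, 1 to 4 for day 7, 0 to 0 for day 3 against day 1 and 1 to 1 for ML-792 averaged over days. The fit of the 6 libraries of a day called 1 gene for ML-792 at day 1. With no filter on low counts, the interaction called 3 in total reads and the averaged effect 1 in labelled reads. Scaling labelled reads by themselves gave 2 for DMSO day 7. DESeq2 called 1 for ML-792 at day 3 and 1 for the interaction in labelled reads, where it called 131 and 106 genes in all. Shares of all genes called with a replicate left out, the replicate block, no filter or other scaling are not given here. The member counts under these settings thus have no background beside them. The cause was not tested.

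The sources used here do not say whether libraries with the same letter belong together, and the main fit did not use the letter. With the replicate block, total reads gave 4 called genes for ML-792 at day 1 and 5 for day 7, and labelled reads gave 1 for day 3, *Ppargc1a* (adjusted p = 0.096). After the condition means were taken off, same-letter libraries had a mean correlation of 0.213 (lowest -0.122) in total and 0.0713 (lowest -0.0153) in labelled reads. Libraries with different letters had means of -0.104 and -0.0355.

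The alternatives gave 561 single values, from 69 fold changes of members that included uncalled ones given in the text. Interactions have no fold change and are not among them. With 1 entry per gene all 69 stayed the same. Without replicates A, B and C, 18, 5 and 14 of the 69 were no longer called. Of the 561, 499 kept their direction and side of the threshold, 52 were no longer called, 7 became called, and 3 uncalled values changed sign. These were *Hdac3* at day 7 against day −2 (-0.15 to 0.01 as each replicate was left out), the averaged ML-792 effect in *Hdac3* (-0.02 to 0.07) and that at day 1 in *Nrip1* (-0.24 to 0.00). The longest entry of each of the 9 genes was the entry used. Few labelled reads limit the labelled values.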
